A study of Homo sapiens with 8 samples.

Results

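The genes described here are 33 direct targets of p53, the transcription factor that cells switch on under DNA damage and other stress. They were chosen by symbol, as genes that p53 is known to activate through its own binding sites, and all 33 were found among the 19414 coding genes listed in every library. Of these, 31 had enough reads to be tested. The measurement was newly made RNA in U2OS, a human osteosarcoma line: the cells took up 4-thiouridine, a base that marks RNA made while it is present, and the labelled RNA was sequenced (TT-seq). Each of the 4 groups had 2 libraries. The labels call them MYC (the oncogene MYC overexpressed), Zab, MYC_Zab (Zab with MYC overexpressed) and WT. The series, per its title, asks how MYC acts with FACT, a histone chaperone, on Z-DNA and transcription. The design text writes Zab as Zαβ, and no label says what the construct is. As background, this name commonly denotes the pair of domains with which the RNA-editing enzyme ADAR binds Z-form nucleic acids. The labels do not give the promoter that drives MYC or whether each line was 1 clone.

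p53 binds a response element made of a pair of 10-base half-sites and recruits the transcription machinery to its targets. Its targets slow the cell cycle, promote or restrain cell death, repair DNA, change metabolism and, through MDM2, remove p53 itself, so that the pathway limits its own activity. U2OS is known to lack the CDKN2A product that restrains MDM2. MYC is a transcription factor that drives growth and is known to feed into p53 through CDKN2A and to repress CDKN1A.

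The sequences below are the stretches before and around the annotated start of 8 targets that hold a match to the p53 response element, and they are shown because p53 acts on these genes through such elements. A window of 250 bases before to 50 bases after the start, from RefSeq on GRCh38.p14, was available for 26 of the 33 targets. GADD45A, TNFRSF10B, TNFRSF10C, PHLDA3, TP53INP1, RRM2B and CMBL were not analysed here for sequence. The full element was searched by its published consensus, with a spacer of 0 or 1 base between the half-sites. This consensus reads the same on both strands. The C and the G that it fixes in each half-site had to match, so mismatches could fall only on the other bases. Within 3 mismatches, 8 of 26 targets (30.8%) held a match, against 795 of 27305 genes with a window (2.91%). Within 2 mismatches, 4 of 26 targets (15.4%) held one, against 184 of 27305 genes (0.674%). A match is a description of the letters, and the elements of other targets may lie outside the window. Capitals mark the matched element, and each line is written along the strand of the gene.
DDB2, 0 mismatches with a spacer of 1 base, chr11:47214975-47215003, plus strand: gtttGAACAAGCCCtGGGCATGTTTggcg
MDM2, 2 mismatches, chr12:68808903-68808962, plus strand: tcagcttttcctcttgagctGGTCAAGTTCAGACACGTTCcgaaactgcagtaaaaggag
AEN, 2 mismatches, chr15:88621286-88621339, plus strand: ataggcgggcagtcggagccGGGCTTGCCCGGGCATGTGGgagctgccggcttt
FAS, 2 mismatches, chr10:88991289-88991348, plus strand: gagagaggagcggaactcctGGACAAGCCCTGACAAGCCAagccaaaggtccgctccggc
PMAIP1, 3 mismatches, chr18:59899791-59899850, plus strand: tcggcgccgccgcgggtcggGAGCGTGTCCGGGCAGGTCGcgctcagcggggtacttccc
RPS27L, 3 mismatches, chr15:63157507-63157566, minus strand: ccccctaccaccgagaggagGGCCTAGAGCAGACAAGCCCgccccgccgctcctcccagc
FDXR, 3 mismatches, chr17:74872995-74873035, minus strand: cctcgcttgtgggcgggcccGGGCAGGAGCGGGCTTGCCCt
SESN1, 3 mismatches, chr6:109008998-109009057, minus strand: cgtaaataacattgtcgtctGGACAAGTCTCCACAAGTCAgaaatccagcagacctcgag
The matched element of DDB2 began at base 6 counted from the start, and the others began between 21 bases (FDXR) and 185 bases (PMAIP1) before it.

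Libraries held 3882696 and 4072059 reads on coding exons in MYC, and 1839960 and 2097530 in Zab. MYC_Zab libraries held 3633889 and 3799962, and WT libraries 2981234 and 2706401. These reads made up 13.7 per 100 tags in MYC, 6.55 in Zab and 13.5 in MYC_Zab, against 13.1 in WT. The Zab libraries thus had the fewest such reads and the lowest coding share. They were not the shallowest by tags, since both WT libraries held fewer tags than either Zab library. Levels are given in CPM, read counts brought to the same total in every library and then scaled between libraries by TMM, which takes most genes as unchanged. MYC itself had 6562 and 6574 CPM in MYC libraries, 932 and 1029 CPM in Zab libraries and 747 and 768 CPM in MYC_Zab libraries, against 772 and 748 CPM in WT libraries. Only the libraries labelled MYC were high, and the libraries labelled MYC_Zab, which should also overexpress MYC, were at the level of WT. ADAR had 444 and 462 CPM in MYC libraries, 527 and 575 CPM in Zab libraries and 32060 and 32160 CPM in MYC_Zab libraries, against 33760 and 33710 CPM in WT libraries. The libraries labelled MYC_Zab and WT thus stood apart from the other 4. ADAR took 3.43% and 3.51% of their reads on coding exons, against 0.0453% and 0.0498% in the libraries labelled MYC and Zab. The level of MYC goes against the label MYC_Zab. The name Zαβ would have the construct carry the coding sequence of ADAR. If so, the level of ADAR fits the label MYC_Zab and goes against the labels Zab and WT. Every direction in Zab over WT rests on both labels, and every direction in MYC over WT or MYC_Zab over WT on the label WT. The log2 change of ADAR was -6.22 in MYC over WT and -5.94 in Zab over WT, so neither comparison holds ADAR at one level. Each group below therefore means the libraries that carry that label. Compared gene by gene, the libraries of one group differed by a chi-square of 2.02 to 2.08 per gene, where 2 is the value for counting error if reads come in twos, as they mostly did. MYC_Zab and WT libraries differed by 2.90 to 3.03, and all other pairs by 35.02 to 53.13. Nothing in the labels tells whether the libraries of a group were grown apart. The p-values below therefore cover the variation seen between the 8 libraries and no more, and each pair may be 1 preparation sequenced again. Of 8 mesenchymal and bone markers, 5 were tested, with VIM between 1800 and 3198 CPM in all libraries, and COL1A2, ALPL and BGLAP stood between 0 and 2.397 CPM. In MYC over WT 4 of these 5 were lower, where 21.8% of all genes tested were lower. RUNX2 was higher, with 30.9 and 31.7 CPM in MYC against 6.13 and 11.02 CPM in WT. In Zab over WT 1 was higher and 1 lower, where 23.8% of all genes were higher and 25.9% lower. The part of these shifts in the results below was not tested. The 9 markers of epithelial, blood, endothelial, neural and muscle cells together came to 14.4 and 15.5 CPM in MYC, 4.79 and 11.7 in Zab, and 12.4 and 7.65 in MYC_Zab, against 14.8 and 11.7 in WT, with CD3E and MYOD1 at 0 reads everywhere.

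Most p53 targets were transcribed at lower levels in the MYC libraries and in the Zab libraries than in WT. None passed the test between MYC_Zab and WT, where only 0.601% of all genes were called. Of the 31 tested targets, 18 were lower and 4 higher in MYC than in WT, where 44.0% of all 11985 genes tested were called and 21.8% were lower. In Zab, 21 targets were lower and 7 higher than in WT, where 49.7% of all genes were called and 25.9% were lower. The median target had a log2 change of -0.56 in MYC and -0.57 in Zab, beside -0.01 and -0.05 over all genes tested. Both comparisons share the WT libraries. All calls are those of limma on log2(CPM + 1), adjusted by Benjamini-Hochberg over all genes tested, at a threshold of 0.05. In such bulk libraries, fewer cells that make an RNA and less of it per cell cannot be told apart.

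The scale of the libraries affects these splits. On the deposited values, which hold 1 factor for each library, all genes shifted by 0.46 in MYC over WT and by -0.62 in Zab over WT. A directory name in the headers holds a word for a spike-in and the processing notes list a fly build, so this may be a spike-in scale, but no source says what set the factor. The targets then split into 10 higher and 11 lower in MYC, beside 5879 higher and 1159 lower among the 11985 genes tested. In Zab, 1 target was higher and 27 lower, beside 578 higher and 6889 lower among those 11985. By role, the medians on that scale were 0.31 for feedback, -0.40 for arrest, 0.07 for death, 0.09 for repair and 0.06 for metabolism in MYC over WT, and all 5 were negative in Zab over WT. Over all targets, the medians were -0.07 and -1.17, which is -0.53 and -0.55 relative to all genes. The libraries of WT, and those of MYC_Zab, were also each taken as 1 sample. The spread then comes from the MYC and Zab libraries alone, so that setting is left to the part on processing below.

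**Figure D1:**
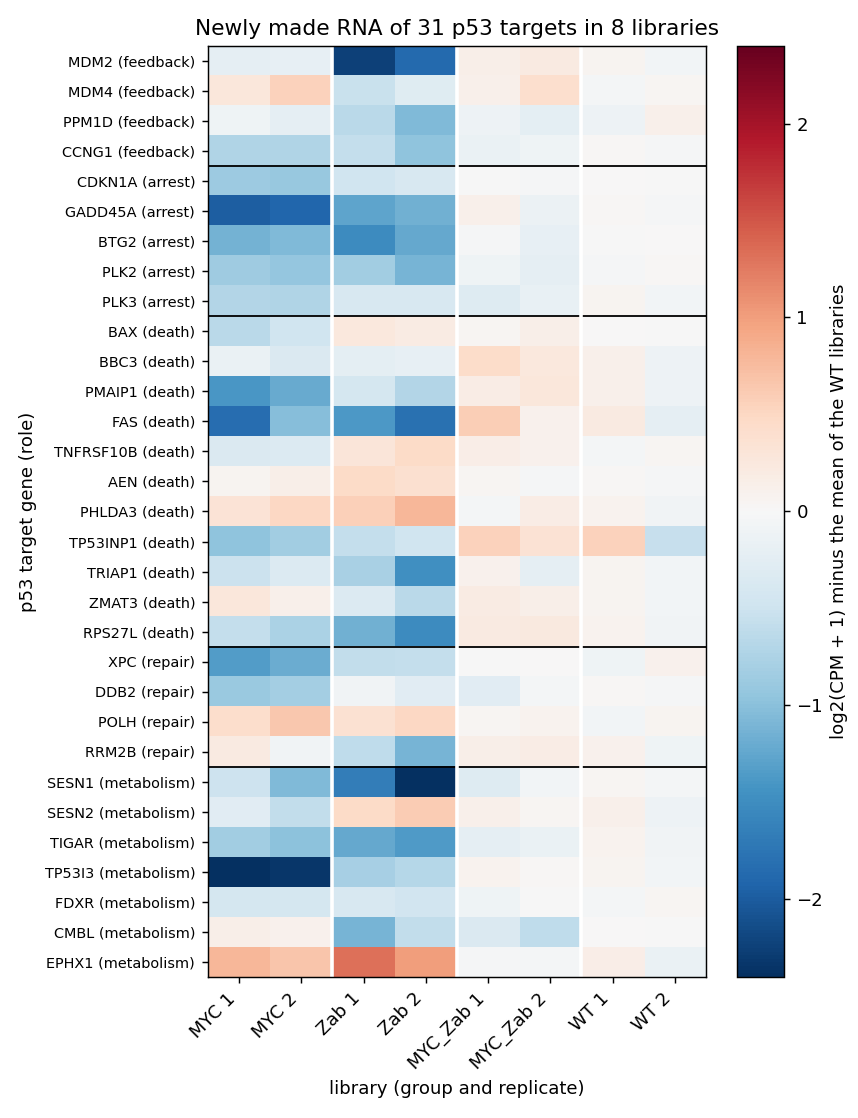
Level of the 31 tested p53 targets (rows, grouped by role) in the 8 libraries (columns, MYC, Zab and MYC_Zab before WT). Values are log2 differences from the mean of each gene over the WT libraries. Most rows are low in the MYC libraries, the Zab libraries or both, with AEN, EPHX1, PHLDA3 and POLH the other way round.

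Levels differed widely among the targets. Per kilobase of counted exon, CDKN1A, BAX and GADD45A led in WT with 167, 148 and 121 CPM per kilobase, and the lowest of the tested genes was TP53INP1 with 2.51. SPATA18, a mitochondrial quality-control gene, had 0 reads in all 8 libraries, which allows up to 3 reads in each, or 0.738 to 1.8 CPM. TNFRSF10C, a decoy receptor for the death ligand TRAIL, had 2 and 6 reads in MYC, 0 and 2 in Zab, and 0 and 11 in MYC_Zab, against 2 and 0 in WT. Neither gene passed the filter, and no difference could be seen at this depth. Across the 31 others, the lowest of the 4 group means was that of Zab for 15 genes, of MYC for 12, of MYC_Zab for 1 and of WT for 3. The highest was that of MYC for 4, of Zab for 6, of MYC_Zab for 8 and of WT for 13.

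The feedback genes, which switch p53 off, were lower in Zab than in WT in 4 of 4 cases, where 25.9% of all genes were lower. In MYC 1 of 4 was lower and 1 higher, where 21.8% of all genes were lower and 22.2% higher. MDM2, the ubiquitin ligase that marks p53 for destruction, had 210.2 and 213 CPM in MYC libraries, 50.9 and 65.8 CPM in Zab libraries and 270.1 and 284 CPM in MYC_Zab libraries, against 256 and 232 CPM in WT libraries. Both Zab libraries lay far below all 6 others, which ranged from 210.2 to 283.8 CPM. Its log2 change was -2.05 ± 0.1 (adjusted p = 1.49e-15) in Zab over WT, a level 4.18-fold lower. The call in MYC over WT was not past the threshold (adjusted p = 0.103), although the groups did not overlap. MDM2 lies at chr12:69201952-69239324 on the plus strand of hg19 and was counted on a transcript of 12216 bases in both MYC libraries and of 7474 bases in both WT libraries. The Zab libraries, one on each transcript, still gave 50.9 and 65.8 CPM.

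PPM1D, a phosphatase that removes activating phosphates from p53 and ATM, had 116 and 108 CPM in MYC libraries, 79.7 and 59.99 CPM in Zab libraries and 116 and 107 CPM in MYC_Zab libraries, against 115 and 137 CPM in WT libraries. Its Zab libraries were the lowest of the 8, with a log2 change of -0.85 ± 0.13 (adjusted p = 3.44e-06) in Zab over WT. CCNG1, a cyclin that works with MDM2 and a phosphatase against p53, had 139.8 and 139 CPM in MYC libraries, 155 and 118 CPM in Zab libraries and 206 and 216 CPM in MYC_Zab libraries, against 235 and 226 CPM in WT libraries. Here both MYC and Zab libraries lay below all WT libraries, with log2 changes of -0.72 ± 0.1 and -0.76 ± 0.1. MDM4, the relative of MDM2 that blocks the activating domain of p53, had 73.9 and 89.6 CPM in MYC libraries, 41.9 and 49.4 CPM in Zab libraries and 65.98 and 81.2 CPM in MYC_Zab libraries, against 59.03 and 62.9 CPM in WT libraries. Its mean was highest in MYC and lowest in Zab, with log2 changes of 0.41 and -0.41 over WT. Both calls were lost when 1 library was left out, in MYC without MYC replicate 2 (0.27, adjusted p = 0.293) and without either WT library, and in Zab without Zab replicate 1 (-0.30, adjusted p = 0.141) or either WT library.

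**Figure D2:**
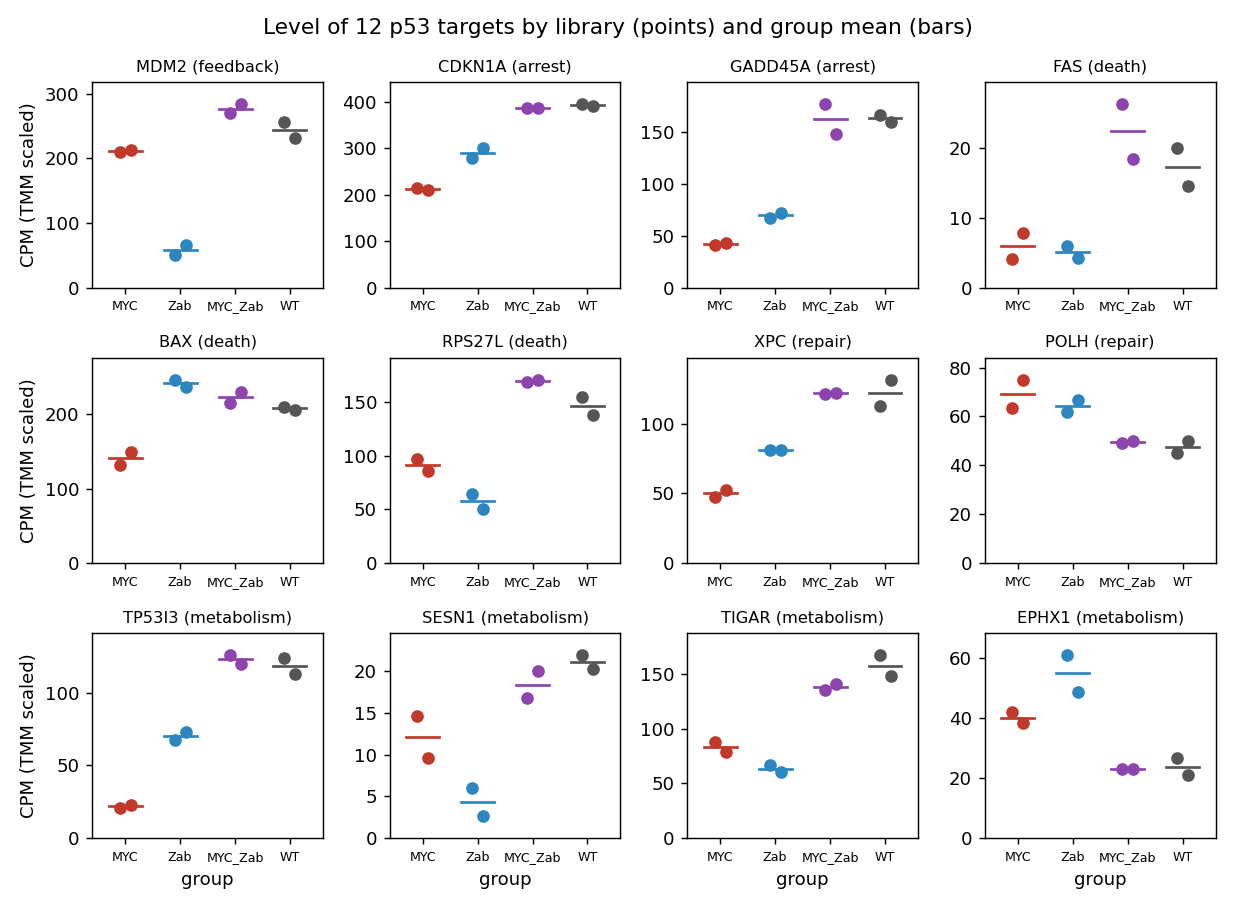
Level in CPM (vertical axis, starting at 0) of 12 p53 targets in the MYC, Zab, MYC_Zab and WT libraries; points are libraries and bars are the means of 2. MDM2 stands at 50.9 and 65.8 CPM in the Zab libraries and between 210.2 and 283.8 CPM in the other 6, while GADD45A and TP53I3 are lowest in the MYC libraries.

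The arrest genes were the role in which every member was lower in both groups: 5 of 5 in MYC and 5 of 5 in Zab. Over all genes tested, 21.8% were lower in MYC and 25.9% in Zab. CDKN1A, the p21 inhibitor of cyclin-dependent kinases and the best known arrest target of p53, had 215 and 209 CPM in MYC libraries, 280.4 and 302 CPM in Zab libraries and 388 and 387 CPM in MYC_Zab libraries, against 395 and 391 CPM in WT libraries. The 4 groups separated into MYC lowest, Zab next, and MYC_Zab beside WT at the top. Its log2 change was -0.89 ± 0.066 (adjusted p = 1.38e-11) in MYC over WT and -0.43 ± 0.066 (adjusted p = 4.64e-06) in Zab over WT. CDKN1A lies at chr6:36646491-36655109 on the plus strand of hg19. GADD45A, a stress sensor that binds the replication clamp and kinases, had 40.7 and 43.1 CPM in MYC libraries, 67.1 and 72.2 CPM in Zab libraries and 176 and 148 CPM in MYC_Zab libraries, against 166 and 159 CPM in WT libraries. Its levels in MYC lay below all others, and those in Zab below MYC_Zab and WT, with log2 changes of -1.93 ± 0.12 (adjusted p = 2.34e-13) and -1.21 ± 0.12 (adjusted p = 2.35e-09). The ratio of its means was 0.257 in MYC over WT.

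BTG2, an antiproliferative partner of the RNA-deadenylating complex, had 79.3 and 83.9 CPM in MYC libraries, 61.1 and 74.3 CPM in Zab libraries and 172 and 152 CPM in MYC_Zab libraries, against 173 and 177 CPM in WT libraries. MYC and Zab libraries all lay below every MYC_Zab and WT library, with log2 changes of -1.09 ± 0.11 and -1.36 ± 0.11. PLK2, a stress-induced polo-like kinase, had 105 and 99.4 CPM in MYC libraries, 107 and 87.6 CPM in Zab libraries and 179 and 165 CPM in MYC_Zab libraries, against 188 and 195 CPM in WT libraries. It showed the same separation, with -0.90 ± 0.1 in MYC and -0.98 ± 0.1 in Zab over WT. PLK3, another kinase of that family, had 58.5 and 58.3 CPM in MYC libraries, 73.1 and 73.3 CPM in Zab libraries and 77.1 and 85.4 CPM in MYC_Zab libraries, against 101 and 91.4 CPM in WT libraries. Its changes were -0.71 ± 0.13 in MYC and -0.39 ± 0.13 in Zab, and the Zab call failed when WT replicate 1 was left out (-0.32, adjusted p = 0.115).

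The death genes went both ways. In MYC 6 of the 11 tested were lower than in WT and 1 was higher, where 21.8% of all genes were lower and 22.2% higher. In Zab 5 were lower and 4 higher, where 25.9% of all genes were lower and 23.8% higher. BAX, which opens the outer mitochondrial membrane, had 133 and 149 CPM in MYC libraries, 247 and 237 CPM in Zab libraries and 216 and 231 CPM in MYC_Zab libraries, against 211 and 206 CPM in WT libraries. It was lowest in MYC, with a log2 change of -0.56 ± 0.084 (adjusted p = 3.39e-06) over WT, and highest in Zab. The Zab change of 0.22 over WT was lost without Zab replicate 1 (0.19, adjusted p = 0.11) and without either WT library, and it was -0.42 on the deposited scale. PMAIP1, known as NOXA, a BH3-only protein that neutralises a guard of the mitochondria, had 19.1 and 21.9 CPM in MYC libraries, 38.4 and 31.3 CPM in Zab libraries and 58.5 and 63.2 CPM in MYC_Zab libraries, against 56.5 and 47.7 CPM in WT libraries. Its MYC libraries were the lowest, with -1.30 ± 0.18 over WT, and its Zab libraries lay between. The Zab change of -0.57 was lost without Zab replicate 2 (-0.43, adjusted p = 0.0798) or WT replicate 1. BBC3, known as PUMA, another BH3-only protein, had 30.4 and 26.6 CPM in MYC libraries, 28.8 and 29.7 CPM in Zab libraries and 46.4 and 40.7 CPM in MYC_Zab libraries, against 37.1 and 31.3 CPM in WT libraries, and neither MYC nor Zab differed from WT past the threshold.

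The death receptors went different ways. FAS, the receptor for FAS ligand, had 4.12 and 7.87 CPM in MYC libraries, 5.99 and 4.25 CPM in Zab libraries and 26.3 and 18.5 CPM in MYC_Zab libraries, against 20 and 14.6 CPM in WT libraries. It was a gene of few reads, and its MYC and Zab libraries lay below all others. Its log2 changes were -1.42 ± 0.35 in MYC and -1.58 ± 0.35 in Zab over WT, and the MYC call was lost without MYC replicate 1 (-1.03, adjusted p = 0.0606). TNFRSF10B, known as DR5, a receptor for TRAIL, had 126 and 128 CPM in MYC libraries, 195 and 220.3 CPM in Zab libraries and 179 and 172 CPM in MYC_Zab libraries, against 155 and 165 CPM in WT libraries. It was lowest in MYC and highest in Zab, with -0.33 ± 0.09 and 0.37 ± 0.09 over WT. Both signs turned on the deposited scale, to 0.16 in MYC and -0.26 in Zab.

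Among the other death genes, RPS27L, a ribosomal protein paralogue tied to p53 stability and survival, had 97.4 and 86.1 CPM in MYC libraries, 64.7 and 50.4 CPM in Zab libraries and 169 and 171 CPM in MYC_Zab libraries, against 155 and 138 CPM in WT libraries. It was lower in both groups, with log2 changes of -0.67 ± 0.12 in MYC and -1.34 ± 0.12 in Zab, and the Zab libraries were the lowest of the 8. TRIAP1, an inhibitor of apoptosis that moves lipids in mitochondria, had 46.1 and 52.7 CPM in MYC libraries, 38.4 and 23.4 CPM in Zab libraries and 71.4 and 56.8 CPM in MYC_Zab libraries, against 69.4 and 63.3 CPM in WT libraries. It was lower in Zab over WT (-1.12 ± 0.19) and did not pass in MYC. ZMAT3, an RNA-binding zinc-finger protein, had 106 and 95.7 CPM in MYC libraries, 69.5 and 55.8 CPM in Zab libraries and 100.3 and 96.01 CPM in MYC_Zab libraries, against 91.6 and 83.2 CPM in WT libraries, with -0.48 ± 0.13 in Zab and no call in MYC. The labels and headers do not say how reads shared with close paralogues, as for RPS27L, were counted.

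AEN, a nuclease that digests DNA in dying cells, had 296 and 311 CPM in MYC libraries, 388 and 368 CPM in Zab libraries and 292 and 277 CPM in MYC_Zab libraries, against 286 and 277 CPM in WT libraries. Only its Zab libraries stood above the rest, with 0.42 ± 0.067 over WT, a sign that turned on the deposited scale (-0.21). PHLDA3, a repressor of the survival kinase AKT, had 98.1 and 110.2 CPM in MYC libraries, 117 and 135 CPM in Zab libraries and 75 and 88.6 CPM in MYC_Zab libraries, against 82.6 and 73.6 CPM in WT libraries. It was higher in both groups, by 0.68 ± 0.12 in Zab and 0.41 ± 0.12 in MYC, and the MYC call was lost without MYC replicate 2 (0.33, adjusted p = 0.122) or WT replicate 2. TP53INP1, a promoter of autophagy and death, had 6.18 and 6.89 CPM in MYC libraries, 8.39 and 9.03 CPM in Zab libraries and 19.6 and 16.8 CPM in MYC_Zab libraries, against 19.7 and 8.53 CPM in WT libraries. WT replicate 2 lay within the range of the Zab libraries, and the call in MYC over WT (-0.90) was lost without WT replicate 1 (-0.34, adjusted p = 0.545), without either MYC library and without either MYC_Zab library; without WT replicate 2 it was -1.46.

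Of the 4 repair genes, 2 were lower and 1 higher than WT in MYC, and the counts were the same in Zab. Over all genes tested, 21.8% were lower and 22.2% higher in MYC, and 25.9% lower and 23.8% higher in Zab. XPC, which recognises distorted DNA at the start of nucleotide excision repair, had 47.7 and 52.7 CPM in MYC libraries, 80.9 and 81.2 CPM in Zab libraries and 121 and 122 CPM in MYC_Zab libraries, against 113 and 132 CPM in WT libraries. Its levels ordered as MYC below Zab below MYC_Zab and WT, with -1.27 ± 0.12 in MYC and -0.58 ± 0.12 in Zab over WT. DDB2, which finds ultraviolet lesions and carries the match without a mismatch shown above, had 53.1 and 56.1 CPM in MYC libraries, 94.1 and 82.8 CPM in Zab libraries and 82.2 and 96.01 CPM in MYC_Zab libraries, against 102 and 97.1 CPM in WT libraries. It was lower in MYC (-0.86 ± 0.13) and did not pass in Zab. RRM2B, the p53-induced subunit of ribonucleotide reductase, had 82.2 and 66.9 CPM in MYC libraries, 46.1 and 32.4 CPM in Zab libraries and 78.6 and 80.5 CPM in MYC_Zab libraries, against 76.1 and 66.1 CPM in WT libraries. It was lower in Zab (-0.86 ± 0.16) and did not pass in MYC. POLH, the polymerase that copies past ultraviolet lesions, had 63.6 and 75.1 CPM in MYC libraries, 61.7 and 66.9 CPM in Zab libraries and 48.97 and 50.1 CPM in MYC_Zab libraries, against 45.2 and 49.8 CPM in WT libraries. Its log2 changes of 0.53 in MYC and 0.43 in Zab were both positive. They were lost in MYC without MYC replicate 2 (0.42, adjusted p = 0.0941), and in Zab without Zab replicate 2 (0.37, adjusted p = 0.0713) or WT replicate 1 (0.36, adjusted p = 0.115).

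Among the metabolic and redox genes, 4 of 7 tested were lower and 1 higher in MYC, and 5 were lower and 2 higher in Zab. The shares over all genes were 21.8% lower and 22.2% higher in MYC, and 25.9% lower and 23.8% higher in Zab. TP53I3, a quinone oxidoreductase that generates reactive oxygen, had 21.1 and 22.6 CPM in MYC libraries, 67.7 and 73.3 CPM in Zab libraries and 126 and 119.9 CPM in MYC_Zab libraries, against 124 and 113 CPM in WT libraries. It had the most negative change of any target in MYC over WT, -2.38 ± 0.13 (adjusted p = 3.11e-14), a level 5.41-fold lower, and -0.74 ± 0.13 (adjusted p = 4.39e-05) in Zab. TIGAR, a phosphatase that diverts sugar from glycolysis, had 88.1 and 78.5 CPM in MYC libraries, 66.5 and 60.5 CPM in Zab libraries and 135 and 140.4 CPM in MYC_Zab libraries, against 167 and 148 CPM in WT libraries. It was lower in both groups, with log2 changes of -0.91 ± 0.11 in MYC and -1.29 ± 0.11 in Zab. FDXR, the mitochondrial ferredoxin reductase, had 135 and 136 CPM in MYC libraries, 138 and 132 CPM in Zab libraries and 169.6 and 179.9 CPM in MYC_Zab libraries, against 177 and 187 CPM in WT libraries. Its changes of -0.42 ± 0.09 and -0.43 ± 0.09 were nearly equal, and the MYC sign turned on the deposited scale (0.07).

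The sestrins, which restrain the growth kinase mTORC1, differed from each other. SESN1 had 14.7 and 9.60 CPM in MYC libraries, 5.99 and 2.66 CPM in Zab libraries and 16.8 and 19.99 CPM in MYC_Zab libraries, against 21.9 and 20.3 CPM in WT libraries. Its Zab libraries were the lowest of the 8, with -2.13 ± 0.34 (adjusted p = 7.48e-06) over WT, the most negative target change in Zab, and MYC did not pass. SESN1 was counted on a transcript of 5645 bases in both Zab libraries. In MYC, MYC_Zab and WT it was counted on 5645 bases in replicate 1 and on 2704 bases in replicate 2. SESN2 had 131 and 105 CPM in MYC libraries, 218 and 242 CPM in Zab libraries and 172 and 163 CPM in MYC_Zab libraries, against 171 and 146 CPM in WT libraries. It was highest in Zab (0.54 ± 0.1 over WT) and lower in MYC (-0.43), a call that failed when MYC replicate 2 (-0.27, adjusted p = 0.0934) or WT replicate 1 (-0.32, adjusted p = 0.0579) was left out. On the deposited scale the changes of SESN2 were -0.10 in Zab and 0.06 in MYC.

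EPHX1, the microsomal epoxide hydrolase, had 41.98 and 38.4 CPM in MYC libraries, 61.1 and 48.8 CPM in Zab libraries and 23.2 and 22.95 CPM in MYC_Zab libraries, against 26.8 and 20.98 CPM in WT libraries. It was counted on a transcript of 2052 bases in both MYC libraries. In Zab, MYC_Zab and WT it was counted on 2052 bases in replicate 1 and on 1666 bases in replicate 2. It was the target with the most positive change in both groups, 1.17 ± 0.2 in Zab and 0.74 ± 0.2 in MYC over WT, and the MYC call failed when WT replicate 2 was left out (0.57, adjusted p = 0.0623) and when MYC replicate 1 was (0.67, adjusted p = 0.0506). CMBL, a cytosolic hydrolase, had 66.5 and 63.98 CPM in MYC libraries, 26.96 and 39.3 CPM in Zab libraries and 46.7 and 38.8 CPM in MYC_Zab libraries, against 60 and 59.7 CPM in WT libraries. It was lower in Zab (-0.86 ± 0.17) and did not pass in MYC.

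No target passed between MYC_Zab and WT. All 31 log2 changes lay between -0.48 and 0.45, with a median of 0.01, where 0.601% of all genes were called. At an unadjusted p under 0.05 limma counted 1 target, CMBL, and edgeR and DESeq2 called 0 at an adjusted p under 0.05. On the deposited scale, where all genes shifted by 0.26, 10 targets were higher and 0 lower. Of all 11985 genes, 1841 were higher and 3 lower on that scale. A p above the threshold does not show that the levels were equal.

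Set against MYC and Zab, the MYC_Zab libraries were higher at most targets. Over MYC, 20 targets were higher and 4 lower, where 44.5% of all genes were called and 21.9% were higher. TP53I3 (2.44 ± 0.13), GADD45A (1.92 ± 0.12) and FAS (1.78 ± 0.35) had the most positive log2 changes, and EPHX1 (-0.77 ± 0.2) and CMBL (-0.61 ± 0.17) the most negative. CMBL lost its call when 1 library was left out, with an adjusted p of up to 0.101. Over Zab, 21 were higher and 6 lower, where 49.9% of all genes were called and 25.8% were higher. MDM2 (2.24 ± 0.1), FAS (1.93 ± 0.35) and SESN1 (1.93 ± 0.34) had the most positive changes, and EPHX1 (-1.21 ± 0.2) and PHLDA3 (-0.62 ± 0.12) the most negative. The sign of PHLDA3 turned on the deposited scale (0.28). On the deposited scale the splits were 16 higher and 6 lower over MYC, and 30 higher and 0 lower over Zab. Of all 11985 genes, 1880 were higher and 4052 lower over MYC on that scale, and 8829 higher and 239 lower over Zab. These comparisons share the MYC_Zab libraries.

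The MYC and Zab libraries, both without the high ADAR signal (0.0453% and 0.0498% of reads), were also compared directly. WT enters this comparison through the spread that the fit shares over all 8 libraries. Of the 31 targets, 11 were higher and 11 lower in MYC than in Zab, where 56.3% of all genes were called, 29.6% higher and 26.7% lower. The median target change was 0.01, against 0.05 over all genes. Lower in MYC were TP53I3 (-1.64 ± 0.13), SESN2 (-0.97 ± 0.1), BAX (-0.78 ± 0.084), PMAIP1 (-0.73 ± 0.18), GADD45A (-0.72 ± 0.12), TNFRSF10B (-0.71 ± 0.09), XPC (-0.68 ± 0.12), DDB2 (-0.68 ± 0.13) and CDKN1A (-0.45 ± 0.066). Higher in MYC were MDM2 (1.85 ± 0.1), SESN1 (1.35 ± 0.34, and 0.88 without Zab replicate 2), CMBL (0.98 ± 0.17), RRM2B (0.92 ± 0.16), MDM4 (0.82 ± 0.15), PPM1D (0.69 ± 0.13), ZMAT3 (0.69 ± 0.13) and RPS27L (0.67 ± 0.12). By role, 3 of 4 feedback genes were higher and 0 lower in MYC, while 3 of 5 arrest genes were lower and 1 higher. The higher arrest gene, BTG2 (0.27), lost its call when any of 7 of the 8 libraries was left out, with an adjusted p of up to 0.344. PLK3, TRIAP1 and TIGAR also lost theirs without 1 library, with adjusted p of up to 0.106, 0.0946 and 0.0865. On the deposited scale all genes shifted by 1.08 in MYC over Zab. There 27 targets were higher and 1 lower, beside 9003 higher and 598 lower of all 11985 genes. Every gene named here as lower, TP53I3 aside, turned to a positive change on that scale.

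**Figure D3:**
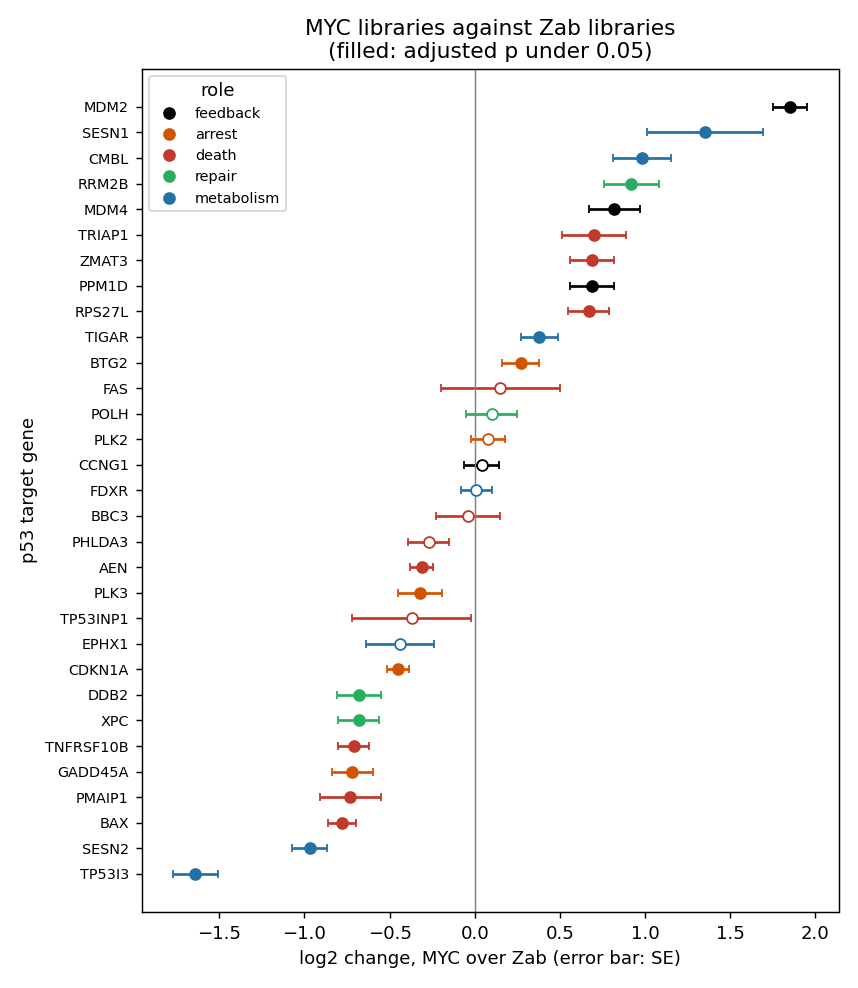
Log2 change in MYC over Zab (horizontal axis, with SE) of each of the 31 tested p53 targets, coloured by role and filled where the adjusted p was under 0.05. TP53I3 at -1.64 and MDM2 at 1.85 mark the ends, with 11 called genes on each side of 0.

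The effect of the label Zab was also set within MYC against that without MYC, as MYC_Zab over MYC minus Zab over WT. This difference was called positive for 23 targets and called negative for 4 of the 31, where 53.1% of all genes were called and 28.3% were called positive. The median was 0.96 for the targets and 0.11 for all genes. FAS (3.35 ± 0.49), TP53I3 (3.18 ± 0.19) and GADD45A (3.14 ± 0.17) had the most positive values and EPHX1 (-1.94 ± 0.28) the most negative. By its construction the difference equals MYC_Zab over WT minus the changes in MYC over WT and in Zab over WT. Target changes in MYC_Zab over WT lay between -0.48 and 0.45. The difference therefore largely repeats the changes in MYC and Zab with the sign turned. The values rest on the labels, which the level of MYC goes against for MYC_Zab and that of ADAR for Zab and WT.

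Target genes differ in the length of DNA they span, and the change in Zab moved with span over all genes. The median log2 change of all genes in Zab over WT was 0.37 for genes of up to 5 kb, 0.16 for 5 to 20 kb, -0.07 for 20 to 50 kb and -0.29 for longer genes. The targets in these classes had medians of -1.12, -0.43, -0.53 and -0.85, over 5, 10, 13 and 3 genes, and 24 of 31 lay below the median of their class. In MYC over WT the medians of all genes were 0.03, 0.01, 0.03 and -0.07, those of the targets -1.09, -0.69, -0.33 and -0.16, and 23 of 31 lay below. The part of span in these changes was not tested.

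**Figure D4:**
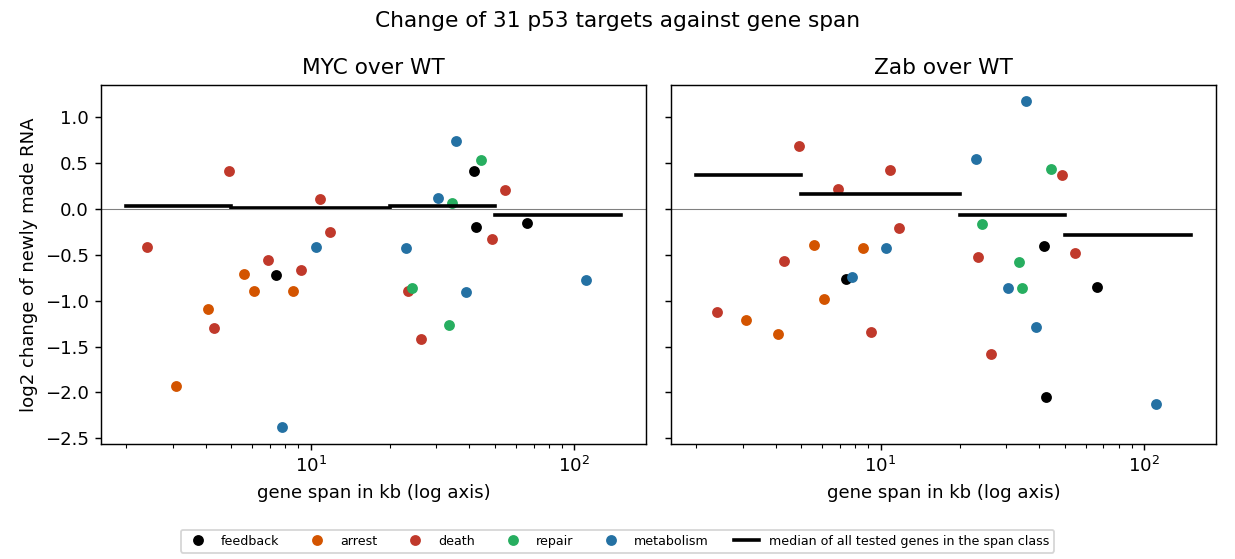
Log2 change of the 31 tested p53 targets (points) against gene span in kb (log axis) in MYC over WT and in Zab over WT, with the median of all genes in each span class. In Zab over WT the medians of all genes run between 0.37 and -0.29, and 24 of 31 targets lie below the median of their class.

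The regulators of p53 showed no single direction, and their median in MYC over WT was -0.17, against 0.32 on the deposited scale. TP63, a transcription factor of the same family, had 0 reads in every library, and CDKN2A, which restrains MDM2, stood between 0 and 1.06 CPM. USP7, which takes ubiquitin off p53 and MDM2, was higher in MYC than in WT (0.47 ± 0.076), at 350.3 and 339 CPM in MYC against 257 and 242 CPM in WT. ATM, a kinase that activates p53, was lower in Zab (-1.04 ± 0.15), with 32.96 and 32.9 CPM in Zab against 76.8 and 61.5 CPM in WT. Its MYC libraries stood at 45.8 and 50.2 CPM, and that call (-0.51) failed when WT replicate 1 (-0.35, adjusted p = 0.152) or MYC replicate 1 was left out. CHEK1, a checkpoint kinase, was lower in Zab (-0.57), a call lost without Zab replicate 1 (-0.19, adjusted p = 0.449) or either WT library. TP73 did not pass in either comparison, at 1.97 to 8.39 CPM in all libraries. Of the 20 regulators tested of 22 listed, 3 were higher and 6 lower in MYC, where 44.0% of all genes were called, and 4 were higher and 9 lower in Zab, where 49.7% were.

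In a wider list of 68 other p53 targets, more were lower than higher in MYC and in Zab, where 21.8% and 25.9% of all genes were lower. Of the 62 tested, 8 were higher and 32 lower in MYC than in WT (median -0.52), and 11 were higher and 25 lower in Zab (median -0.44). Between MYC_Zab and WT 0 passed, where only 0.601% of all genes were called. GDF15, a secreted stress cytokine, had 147 and 128 CPM in MYC libraries, 62.9 and 72.7 CPM in Zab libraries and 42.5 and 44.2 CPM in MYC_Zab libraries, against 35.2 and 38.4 CPM in WT libraries. It was among the higher members, with 1.87 ± 0.14 in MYC and 0.86 ± 0.14 in Zab over WT. FUCA1, a lysosomal fucosidase, had 3.09 and 6.40 CPM in MYC libraries, 2.996 and 8.50 CPM in Zab libraries and 13.7 and 15.8 CPM in MYC_Zab libraries, against 19.7 and 19.9 CPM in WT libraries, with -1.92 ± 0.39 in MYC and -1.76 ± 0.39 in Zab, and -1.13 in Zab without Zab replicate 1. CD82, a tetraspanin, had 1.55 and 1.72 CPM in MYC libraries, 11.4 and 14.9 CPM in Zab libraries and 11.3 and 7.16 CPM in MYC_Zab libraries, against 8.39 and 14.9 CPM in WT libraries, and was lower in MYC (-2.22 ± 0.39). E2F7, a repressor of cell cycle genes, had 29.9 and 28.1 CPM in MYC libraries, 79.1 and 63.7 CPM in Zab libraries and 70.1 and 76.3 CPM in MYC_Zab libraries, against 73.9 and 69.7 CPM in WT libraries, and was lower in MYC (-1.28 ± 0.15). Neither CD82 nor E2F7 passed in Zab. SUSD6 in both groups (-0.40 and -0.40) and NINJ1 in Zab (-0.47) were called, but SUSD6 lost its calls without WT replicate 1 (-0.29 in both, adjusted p = 0.263 and 0.247), and NINJ1 without Zab replicate 1 (-0.16, adjusted p = 0.488), as in other settings that left out a library. PERP, a membrane protein of cell death, did not pass in MYC or Zab, at 9.35 to 21.6 CPM in all libraries.

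The genes that p53 is known to repress through CDKN1A and the DREAM complex, which serve mitosis and DNA replication, had more members higher than lower, where 22.2% of all genes were higher in MYC and 23.8% in Zab. Their median in Zab over WT was 0.21 here and -0.42 on the deposited scale, and in MYC over WT it was 0.18 and 0.67. Of 24 listed and tested, 10 were higher and 2 lower in MYC than in WT, and 11 higher and 6 lower in Zab. PLK1, the main mitotic polo-like kinase, had 252 and 258 CPM in MYC libraries, 261 and 246 CPM in Zab libraries and 128 and 128 CPM in MYC_Zab libraries, against 113 and 127 CPM in WT libraries. It was higher in both groups, by 1.09 ± 0.087 in MYC and 1.08 ± 0.087 in Zab, with no overlap with WT. FOXM1, which drives mitotic genes, had 356 and 376 CPM in MYC libraries, 448 and 442 CPM in Zab libraries and 267 and 243 CPM in MYC_Zab libraries, against 260 and 256 CPM in WT libraries, with 0.50 ± 0.067 in MYC and 0.78 ± 0.067 in Zab. CDK1, the mitotic kinase, had 67.99 and 68.9 CPM in MYC libraries, 37.2 and 44.1 CPM in Zab libraries and 98.97 and 92.3 CPM in MYC_Zab libraries, against 75.8 and 60.1 CPM in WT libraries, and was lower in Zab (-0.72 ± 0.15). CCNB1, its cyclin, had 375 and 370.1 CPM in MYC libraries, 434 and 389 CPM in Zab libraries and 293 and 275 CPM in MYC_Zab libraries, against 351 and 349 CPM in WT libraries. It was higher in Zab (0.23), a call lost without Zab replicate 1 (0.15, adjusted p = 0.076) and a sign that turned on the deposited scale (-0.40). It was the member called between MYC_Zab and WT, at -0.30 ± 0.066 (adjusted p = 0.023). That call ended with any MYC, MYC_Zab or WT library left out (adjusted p of 0.09 to 0.541), with library totals (-0.26), with no filter, with WT and MYC_Zab pairs as 1 sample each, and on the deposited scale (-0.02). CDC25C, a phosphatase that activates CDK1, did not pass in MYC or Zab, at 5.92 to 20.4 CPM in all libraries.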

How the data were processed

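TT-seq was done on 8 libraries of U2OS in 4 groups of 2. Per the submitters' processing notes, STAR, bedtools 2.29.2, SAMtools 1.11 and Trim Galore 0.6.6 were used, with the builds hg19 and dm6. Per the file headers, the authors counted tags over exons of hg19 RefSeq coding genes on the opposite strand with HOMER, with 1 transcript per symbol, chosen in each library separately. Of the 33 targets, 20 had 1 transcript in all 8 libraries and 13 had more. The deposited values are a signal, each a whole number of reads multiplied by 1 factor for its library; a directory name in the headers holds a word for a spike-in, which with dm6 may be its basis, but no source says what set that factor. Dividing by the step gave whole reads, within 0.02, for 99.9% to 100.0% of values.

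From these, CPM with TMM scaling (edgeR 4.0.16) were computed, and genes were kept with filterByExpr at 10 reads, leaving 11985. limma 3.58.1 with a trend, in R 4.3.3, was fitted to log2(CPM + 1) of all 8 libraries with a term per group, leaving 4 residual degrees of freedom. Calls used an adjusted p under 0.05 (Benjamini-Hochberg over all genes tested). A log2 change on this scale understates the change of low genes. Alternatives were edgeR and DESeq2 1.42.0 on the recovered reads (edgeR called 5776 genes in MYC over WT and 5697 in Zab over WT), library totals, the deposited scale, no filter, a pseudocount of 0.25, genes on the same transcript, WT and MYC_Zab pairs as 1 sample each, a replicate block, and each library left out. Replicate numbers did not pair the libraries: deviations of same-numbered libraries from their group means correlated between -0.026 and 0.01. On simulated data for MYC over WT (11870 genes, 200 changed), 74% of changes of 2-fold and 40% of 1.5-fold were called, with 0% of unchanged genes. The changed genes were drawn from those with many reads, and all genes shared 1 dispersion. In the real MYC over WT 44.0% of genes were called, so these rates need not hold there.

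The targets, the other lists and the tests were chosen with earlier results of these data known. All 33 targets are accounted for. Genes named outside them are MYC, ADAR and fixed members of the lists of regulators, other targets and repressed genes, whatever their values; 2 of these are not reported here. Gene span classes were chosen after seeing the data. Reads in a pair are not independent molecules, so floors cover counting error only. Genome sequence beyond the promoter windows was not used here.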

Additional observations from a re-analysis of the deposited data

Results flagged for a closer look

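The difference between the effect of the label Zab within MYC and without it (MYC_Zab over MYC minus Zab over WT, on the log2 scale) passed the test for 27 of the 31 targets, where 53.1% of all genes passed. In each case the test was limma's interaction term at an adjusted p under 0.05. The difference equals MYC_Zab over WT, where no target was called, minus the changes in MYC over WT and in Zab over WT. It therefore largely repeats the changes in MYC and Zab given above with the sign turned, and is not a separate result. Among the feedback genes the difference was 2.44 for MDM2, 1.36 for CCNG1 and 0.84 for PPM1D. Among the arrest genes it was 3.14 for GADD45A, 2.34 for BTG2, 1.72 for PLK2, 1.30 for CDKN1A and 0.86 for PLK3, so all 5 were positive.

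Among the death genes it was positive for FAS (3.35), RPS27L (2.22), PMAIP1 (2.10), TP53INP1 (1.88), TRIAP1 (1.48), BBC3 (0.81), BAX (0.44) and ZMAT3 (0.44), and negative for PHLDA3 (-1.03) and AEN (-0.52). Among the repair genes it was 1.85 for XPC, 0.96 for RRM2B, 0.87 for DDB2 and -0.90 for POLH. Among the metabolic genes it was 3.18 for TP53I3, 2.71 for SESN1, 2.02 for TIGAR, 0.79 for FDXR and -1.94 for EPHX1. The calls of BBC3 and ZMAT3 were lost when 1 library was left out, with adjusted p of up to 0.0776 and 0.162. MYC stood at 747 and 768 CPM in the libraries labelled MYC_Zab, against 6562 and 6574 CPM in those labelled MYC, so the contrast does not hold MYC at one level.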

How the results depend on the processing

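Counts of targets called kept within 1.5 times of the value above in every alternative except 5. With only genes counted on the same transcript in the compared groups, fewer targets were tested, and 18 of 20 were called in Zab over WT, 14 of 19 in MYC over Zab, 16 of 20 in MYC_Zab over Zab and 16 of 19 for the difference of effects. On the deposited scale, 10 were called in MYC_Zab over WT. With each library left out in turn, the counts ranged over 17 to 25 in MYC over WT, 23 to 28 in Zab over WT, 0 to 0 in MYC_Zab over WT, 19 to 22 in MYC over Zab, 21 to 25 in MYC_Zab over MYC, 23 to 27 in MYC_Zab over Zab and 25 to 27 for the difference. With the replicate number as a block, the counts were 22, 28, 0, 22, 24, 27 and 27 in that order, and the block changed no call. Of the 170 called values of named genes, 25 reversed, all on the deposited scale, which by its construction keeps the factor per library. In MYC over Zab these were SESN2 (0.16), BAX (0.35), PMAIP1 (0.35), GADD45A (0.39), TNFRSF10B (0.42), XPC (0.43), DDB2 (0.43), CDKN1A (0.67), PLK3 (0.79) and AEN (0.81). In Zab over WT they were BAX (-0.42), TNFRSF10B (-0.26), AEN (-0.21), POLH (-0.19), SESN2 (-0.10) and CCNB1 (-0.40). In MYC over WT they were TNFRSF10B (0.16), SUSD6 (0.09), FDXR (0.07) and SESN2 (0.06). In MYC_Zab over Zab they were TNFRSF10B (0.67), POLH (0.52), AEN (0.50), SESN2 (0.46) and PHLDA3 (0.28). DESeq2 ended 17 of these calls, edgeR 2, library totals 12, no filter 10, a pseudocount of 0.25 0, and WT and MYC_Zab pairs as 1 sample each 28. Leaving out 1 library ended 34 in at least 1 setting. Over all genes, MYC_Zab over WT had 72 calls by limma, 146 by edgeR, 126 by DESeq2, 17 with no filter, 1844 on the deposited scale, 22 to 135 with a library left out and 0 with pairs as 1 sample. With pairs as 1 sample there were also 3445 calls, against 5276, in MYC over WT, 3969 against 5956 in Zab over WT, 3547 against 5333 in MYC_Zab over MYC and 3977 against 5979 in MYC_Zab over Zab, and the deposited scale gave 9068 in the last. The Zab libraries, with 1839960 and 2097530 reads on coding exons, limit what can be seen for targets of few reads such as FAS, TP53INP1 and SESN1.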
